A study of Mus musculus with 2 samples.

Results

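The enzymes of mitochondrial fatty acid oxidation were followed as 10 genes, Cpt1a, Cpt2, Slc25a20, Acadm, Acadl, Acadvl, Hadha, Hadhb, Acaa2 and Etfdh, chosen by name for their place in the pathway. They are 10 of the 32285 genes in the count matrices, and all 10 were detected in every group of cells. The cells were bone marrow LSK cells (lineage-negative, Sca-1 positive and c-Kit positive), the compartment that holds haematopoietic stem cells and multipotent progenitors. Mice entered the study at about 6 months of age and received 50 mg/kg deferoxamine, an iron chelator, or the vehicle HBSS, each day for 7 days in every 4 weeks over 13 months. Each condition is 1 pool of cells with its own hashtag, and the mixed pools gave 1 RNA library and 1 antibody-tag library (CITE-seq, which reads transcripts and surface proteins from the same cells). No genetic change is named for either group, and the sources used here do not give the strain, the sex or the number of mice behind each pool. Cells of 1 pool are not replicates, so no difference below has a test of the treatment, and all intervals are 95% intervals that cover counting error only.

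Long-chain fatty acids enter mitochondria through the carnitine shuttle: Cpt1a couples them to carnitine at the outer membrane, Slc25a20 carries the acylcarnitine across the inner membrane, and Cpt2 turns it back into acyl-CoA. Acyl-CoA dehydrogenases (Acadvl, Acadl and Acadm, for very long, long and medium chains) then start each round of shortening, and their electrons reach the respiratory chain through the flavoprotein Etfdh, which holds an iron-sulfur cluster. Hadha and Hadhb, the subunits of the mitochondrial trifunctional protein, and the thiolase Acaa2 finish the round. Fatty acid oxidation is known in this tissue for a role in the maintenance of haematopoietic stem cells, downstream of Pml and the nuclear receptor gene Ppard.

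The control matrix held 4026 barcodes and 63370466 gene UMIs (unique molecular identifiers, each standing for 1 captured transcript), and the chelator matrix held 4037 barcodes and 66573361 gene UMIs. After filtering, 3969 control and 3998 chelator cells remained, with a median of 13705 and 14455.5 UMIs, and no barcode occurred in both pools. Cells were divided by the surface tags CD135, CD48 and CD150 into an HSC gate (CD150 alone; 1161 control and 1310 chelator cells), MPP1 (all 3 negative; 548 and 562), MPP2 (CD48 and CD150; 92 and 100), MPP3 (CD48 alone; 502 and 611) and MPP4 (CD135 without CD150; 1510 and 1293). These gates are ranges of tag signal. Cells within 0.25 of a tag threshold were 18.3% of the HSC gate, 46.9% of MPP1, 47.8% of MPP2, 45.4% of MPP3 and 30% of MPP4 in the control. The RNA of the tag genes went with the tags between the HSC gate and MPP4, and less closely in other gates. Slamf1, which encodes CD150, stood at 58.3 CPM (UMIs per 1000000 gene UMIs) in the control HSC gate and 0.910 CPM in MPP4, and Flt3, which encodes CD135, at 7.03 and 280 CPM. Flt3 was also at 74.6 CPM in MPP1 and 99.6 CPM in MPP3 of the control, gates negative for the CD135 tag. Of adipocytes and stroma, marrow cells rich in fat metabolism genes, little RNA was found: Adipoq was at 0 in every gate of both pools, and the summed level of Adipoq, Lepr, Cxcl12 and Col1a1 was 0.285 CPM in the control and 0.286 CPM in the chelator pool. Among cells whose sex could be read from Xist and Y-linked transcripts, 42.1% of control and 26.1% of chelator cells carried Xist, so values within each sex are given where they bear on a result.

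Promoters of 9 members were in the RefSeq promoter table (GRCm38.p6, 250 bases before to 50 after each start), and 3 are shown: that of Hadhb, because it is shared with Hadha, and those of Cpt1a and Slc25a20, the shuttle genes whose levels differed most between the gates. They are Hadhb at chr5:30155003-30155302 on the plus strand, Cpt1a at chr19:3323051-3323350 on the plus strand and Slc25a20 at chr9:108661886-108662185 on the plus strand. Capitals mark, on either strand, the GC box GGGCGG, the box CCAAT, the ETS motif CCGGAAG and the nuclear receptor half-site AGGTCA.
Hadhb: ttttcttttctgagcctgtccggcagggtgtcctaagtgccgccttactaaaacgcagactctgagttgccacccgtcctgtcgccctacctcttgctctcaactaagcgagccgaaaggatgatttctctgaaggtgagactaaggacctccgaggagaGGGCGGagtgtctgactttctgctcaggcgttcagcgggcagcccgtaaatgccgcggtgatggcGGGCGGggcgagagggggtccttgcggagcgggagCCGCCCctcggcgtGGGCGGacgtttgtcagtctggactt
Cpt1a: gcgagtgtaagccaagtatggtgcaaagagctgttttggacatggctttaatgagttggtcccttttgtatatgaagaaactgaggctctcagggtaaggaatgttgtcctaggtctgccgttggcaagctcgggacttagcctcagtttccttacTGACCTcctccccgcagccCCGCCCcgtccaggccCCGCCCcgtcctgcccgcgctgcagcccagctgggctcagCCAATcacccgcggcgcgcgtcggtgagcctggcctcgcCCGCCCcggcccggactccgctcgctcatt
Slc25a20: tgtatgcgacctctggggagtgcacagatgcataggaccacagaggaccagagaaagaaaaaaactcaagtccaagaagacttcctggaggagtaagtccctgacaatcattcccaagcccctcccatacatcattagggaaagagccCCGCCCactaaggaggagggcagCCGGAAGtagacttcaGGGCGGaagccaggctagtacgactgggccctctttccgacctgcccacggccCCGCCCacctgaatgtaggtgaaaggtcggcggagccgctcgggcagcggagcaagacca
The GC box GGGCGG occurred in 7 of the 9 promoters (Acadl, Cpt1a, Cpt2, Etfdh, Hadha, Hadhb and Slc25a20), against 35.6% of 32817 promoters of the same length. The box of Hadha lies in the stretch shared with Hadhb and is also counted there. These 7 promoters were from 57.3% (Cpt2 and Etfdh) to 70.3% (Acadl) G and C, against a median of 52.7% over all promoters. The part of base composition in this count was not tested. The ETS motif CCGGAAG was found in Cpt2 and Slc25a20 (8.86% of all promoters) and CCAAT in Cpt1a and Etfdh (37.4%). The nuclear receptor half-site AGGTCA, which is also part of the next motifs, occurred in Acadm, Acadvl and Cpt1a (16.3%). No member promoter held that half-site repeated in the same direction with 1 base between the copies (0.0396% of all promoters), the ERR motif TCAAGGTCA (0.424%), the E-box CACGTG (7.15%) or TATAAA (13.6%) in this window. Both strands were searched, and a match describes letters only.

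Hadha (chr5:30119423-30154980, minus strand) and Hadhb (chr5:30155253-30184593, plus strand) lie head to head, with 272 bases between their starts, so that their promoter windows share 228 bases. The 2 subunits of this complex were counted in similar numbers, on a scale of 1 UMI per captured transcript end that is not corrected for length. Over all LSK cells the control pool held 4155 Hadha and 4127 Hadhb UMIs, and the chelator pool 4188 and 4359. Hadha made up 50.2% of the pair's UMIs in the control (49.1% to 51.3%, exact binomial) and 49.0% in the chelator pool (47.9% to 50.1%). Across the gates this share ran from 47.8% (45.5% to 50.0%) in the control HSC gate to 54.4% (48.9% to 59.9%) in the chelator MPP2 gate. The intervals of all gates of both pools overlapped.

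Of the carnitine shuttle genes, Slc25a20 and Cpt1a were highest in the gates without CD48 and CD135. Slc25a20, the inner membrane carrier, stood at 38.1 CPM in the HSC gate of the control (35.2 to 41.2; 628 UMIs), followed by MPP1 at 33.4, MPP2 at 29.7, MPP3 at 27.1 and MPP4 at 26.9 CPM. In the chelator pool it was 36.1 CPM in the HSC gate (33.4 to 38.8; 699 UMIs), 29.1 in MPP1, 28.0 in MPP3, 26.4 in MPP4 and 22.6 in MPP2. Neighbours in this order had overlapping intervals except HSC and MPP1 in the chelator pool. The HSC gate was thus the highest of the 5 gates in both pools.

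Cpt1a, the entry enzyme of the shuttle, was at 51.9 CPM in MPP1, 49.9 in the HSC gate (46.5 to 53.4; 823 UMIs), 43.8 in MPP3, 43.2 in MPP4 (40.7 to 45.9; 1092 UMIs) and 38.7 in MPP2 of the control. In the chelator pool it was at 54.9 CPM in the HSC gate (51.6 to 58.3; 1064 UMIs), 51.0 in MPP1, 42.4 in MPP3, 41.6 in MPP4 (39.0 to 44.3; 971 UMIs) and 29.6 in MPP2 (23.0 to 37.5; 68 UMIs). The HSC and MPP1 gates were the upper 2 and MPP2 the lowest in both pools, and only MPP4 and MPP2 of the chelator pool were neighbours whose intervals stood apart. Cpt2, the inner enzyme, varied less, from 18.3 CPM in MPP4 to 22.7 in MPP1 of the control and from 19.6 in MPP4 to 22.6 in MPP2 of the chelator pool. All its neighbouring gates overlapped.

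Of the acyl-CoA dehydrogenases, Acadvl was highest in the HSC gate, like Slc25a20, and Acadl was the flattest member. Acadvl was at 45.4 CPM in the control HSC gate (42.2 to 48.8; 749 UMIs), 43.4 in MPP2, 43.3 in MPP1, 37.2 in MPP4 (34.9 to 39.7; 940 UMIs) and 33.4 in MPP3. The chelator pool had it at 46.1 CPM in the HSC gate (43.1 to 49.2; 893 UMIs), 42.2 in MPP1, 39.1 in MPP2, 35.9 in MPP3 and 32.4 in MPP4 (30.1 to 34.8; 756 UMIs). The HSC gate led in both pools, and every neighbouring pair overlapped. Acadl lay between 129 and 143 CPM over the gates of the control and between 131 and 144 CPM in the chelator pool, so that its highest gate was 1.11-fold and 1.10-fold above its lowest. Acadm was highest in MPP1, at 82.8 CPM in the control and 86.9 CPM in the chelator pool, and lowest in MPP3 of the control (63.7) and MPP2 of the chelator pool (63.0). Its HSC gate value was 75.6 CPM in the control and 79.6 CPM in the chelator pool.

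Hadha and the thiolase Acaa2 had another order, with MPP2 the highest gate in both pools. Acaa2 was at 61.8 CPM in MPP2 of the control (51.7 to 73.3), 55.2 in MPP1, 54.9 in MPP4, 52.9 in MPP3 and 47.4 in the HSC gate (44.1 to 50.8). In the chelator pool the order was the same, with 67.8 CPM in MPP2 (57.6 to 79.3), 55.0 in MPP1, 53.4 in MPP4, 53.3 in MPP3 and 45.8 in the HSC gate (42.8 to 48.9). The HSC gate was lowest in both pools, and in the chelator pool its interval was apart from that of MPP3, the next gate up. Hadha was highest in MPP2 at 78.3 CPM (66.9 to 91.2) in the control and 77.4 CPM (66.4 to 89.6) in the chelator pool, against 57.5 and 59.6 CPM in the HSC gate. Hadhb stayed between 62.1 and 72.7 CPM in the control and between 59.6 and 69.5 CPM in the chelator pool, with overlapping neighbours throughout. Etfdh, which hands the electrons on, ranged from 30.3 CPM in MPP4 to 37.7 in MPP2 of the control and from 31.3 in MPP1 to 37.0 in MPP2 of the chelator pool, also with overlapping neighbours.

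**Figure D1:**
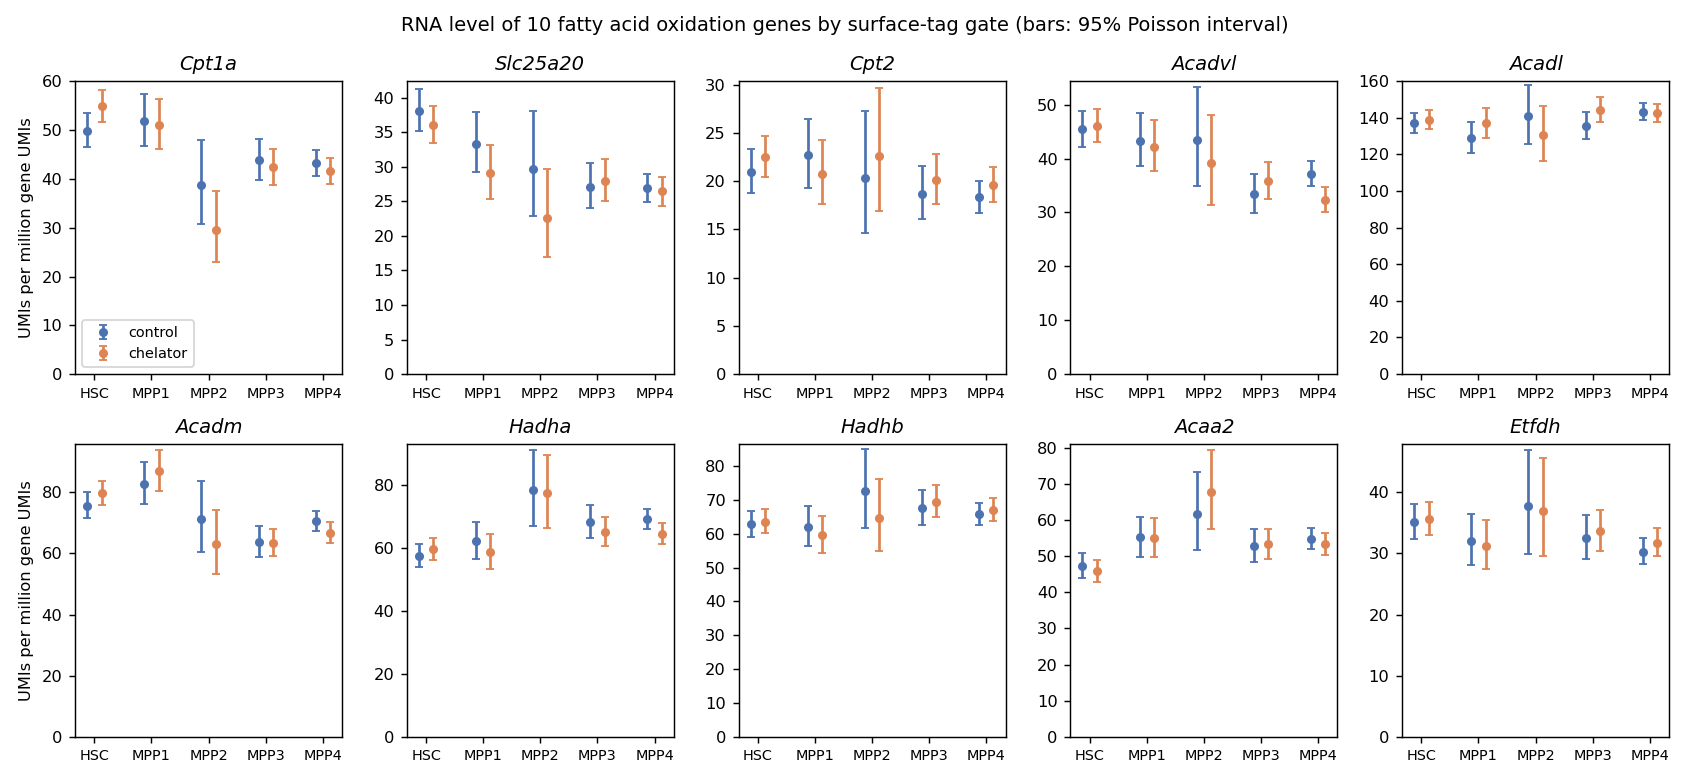
Level of each member in CPM (UMIs per 1000000 gene UMIs, vertical axes starting at 0) in the 5 tag gates, for the control and the chelator pool; points are pool sums and bars are 95% Poisson intervals. Slc25a20 and Acadvl are highest in the HSC gate, Acaa2 and Hadha in MPP2, and Acadl is nearly flat in both pools.

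Summed over the 10 members, the gates differed less. This sum weighs members by their level, so Acadl, the member with the highest level and the flattest, weighs most. The sum was 570 CPM in the HSC gate, 575 in MPP1, 595 in MPP2, 544 in MPP3 and 559 in MPP4 of the control, and 583, 571, 555, 556 and 546 CPM in the same gates of the chelator pool. Neighbours in the order of the sums overlapped in both pools, and the highest gate was 1.09-fold above the lowest in the control and 1.07-fold in the chelator pool. Counted per cell, the sum was 8.10 UMIs in the control HSC gate, 9.36 in MPP4 and 13.7 in MPP2, where the gates also differed in total UMIs per cell (medians of 12687, 14511.5 and 20534.5). Grouped by role, a grouping made after the values were seen, the shuttle genes summed to 109 CPM in the control HSC gate and 88.4 in MPP4, and to 113 and 87.5 CPM in the chelator pool. The dehydrogenases summed to 258 and 251 CPM in the control and to 265 and 241 CPM in the chelator pool. Hadha, Hadhb and Acaa2 went the other way, with 168 CPM in the HSC gate and 190 in MPP4 of the control, and 169 and 185 CPM in the chelator pool.

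MPP4 was set against the HSC gate within each pool, and a gene was called higher or lower where its log2 CPM ratio was at least 0.32 in size and the interval left out 0. Slc25a20 was called lower in both pools, with a log2 ratio of -0.50 (-0.66 to -0.34) in the control and -0.45 (-0.61 to -0.29) in the chelator pool. Acadvl was called lower in the chelator pool at -0.51 (-0.65 to -0.37) and was at -0.29 (-0.43 to -0.15) in the control. Cpt1a was likewise called lower in the chelator pool at -0.40 (-0.53 to -0.27) and was at -0.21 (-0.34 to -0.075) in the control. On the other side, Hadha was at 0.26 (0.15 to 0.38) in the control and 0.11 (0.0013 to 0.22) in the chelator pool, and Acaa2 at 0.21 (0.085 to 0.34) and 0.22 (0.095 to 0.35), all under that size. In all, 1 of 10 members was called lower in the control, where 24.5% of 11853 tested genes were, and 3 of 10 in the chelator pool, where 26.1% of 11899 were. No member was called higher, against 20.2% and 20.5% of tested genes. The shares of members called lower were below the background in the control and close to it in the chelator pool. The median log2 ratio of all 10 members was -0.15 in the control and -0.18 in the chelator pool, beside -0.0060 and -0.016 over all tested genes. In the control the count of lower members was 3 when cells were thinned to 5000 UMIs or limited to cells with Xist, and 2 without cells near a tag threshold or without mitochondrial and ribosomal protein genes.

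Several of these genes were also called in the smaller gates. In MPP3 over the HSC gate, Slc25a20 and Acadvl were called lower in the control (2 of 10, background 26.9%) and Cpt1a, Slc25a20, Acadm and Acadvl in the chelator pool (4 of 10, background 27.1%), while no member was called higher (19.9% in both pools). In MPP2, Hadha was called higher at 0.44 (0.20 to 0.68) in the control and 0.38 (0.14 to 0.61) in the chelator pool. Acaa2 was called higher there too, at 0.38 (0.11 to 0.65) and 0.57 (0.31 to 0.81), which makes 2 of 10 in each pool against 17.9% and 17.8% of tested genes. Cpt1a was called lower in MPP2 of both pools, at -0.37 in the control and -0.89 (-1.27 to -0.54) in the chelator pool, the lowest ratio of the 10 members in any gate over the HSC gate. It was the 1 lower member in the control (background 19.5%), and Slc25a20 at -0.67 and Acadm at -0.34 made 3 in the chelator pool (background 21.6%). Between MPP1 and the HSC gate no member was called in either direction, where 9.89% of genes were higher and 12.0% lower in the control and 12.3% and 12.0% in the chelator pool.

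**Figure D2:**
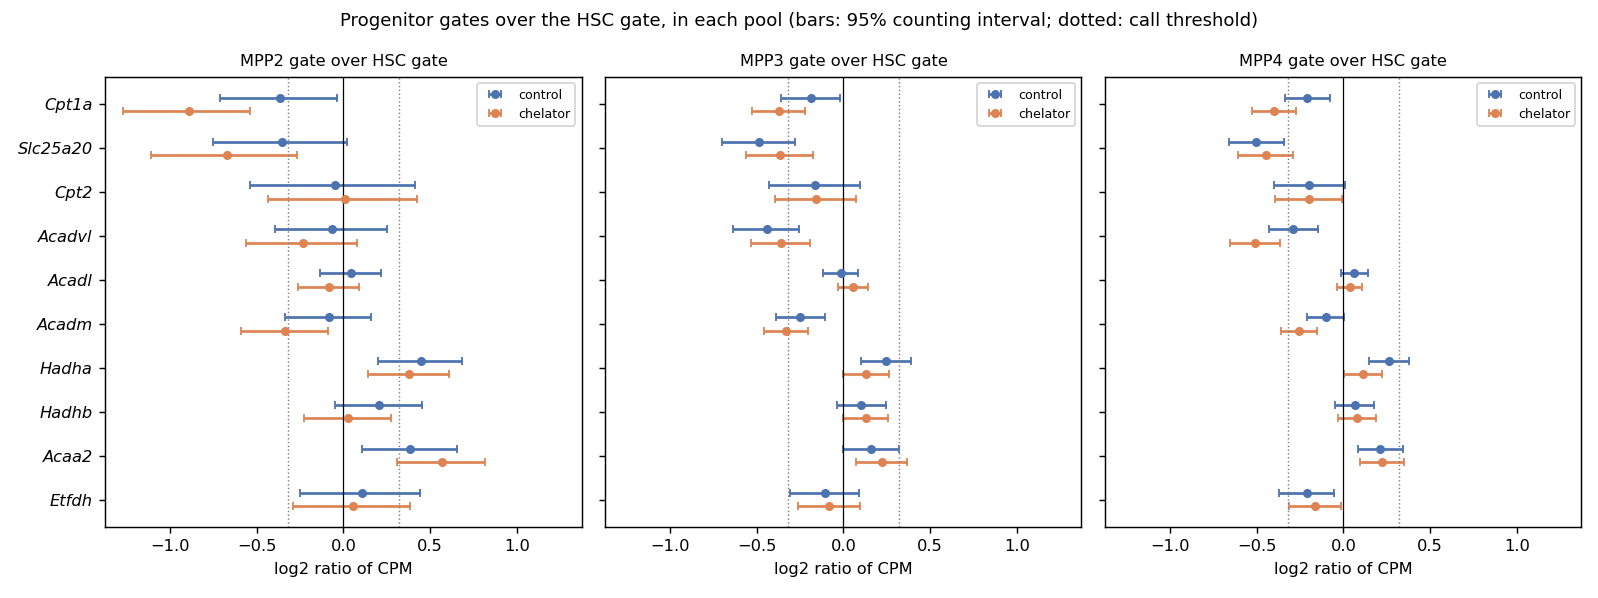
Log2 ratio of each member's CPM in a progenitor gate over the HSC gate, in the control and the chelator pool, with 95% counting intervals and dotted lines at the size for a call (0.32). Slc25a20, Acadvl and Cpt1a lie left of 0 in MPP3 and MPP4 of both pools, and Hadha and Acaa2 lie right of 0.

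The gates also differed in cycling. Cells scored above 0 for S or G2M genes were 22.7% of the control HSC gate and 57.2% of control MPP4, and 24.0% and 61.5% in the chelator pool. The summed level of Mki67, Top2a, Mcm5, Pcna and Ube2c was 559 CPM in the HSC gate and 1141.5 CPM in MPP4 of the control. In the chelator pool it was 509 and 1241 CPM. The scores also rest on S and G2M genes, so this sum is no separate check of the shares. Between the pools it did not follow the shares in the HSC gate. Within the HSC gate, the log2 ratio of cycling over other cells was -0.25 for Cpt1a in the control and -0.45 in the chelator pool. It was -0.38 and -0.24 for Slc25a20, -0.33 and -0.21 for Acadm, and -0.17 and -0.19 for Acadvl. Hadha was at 0.44 and 0.29 and Hadhb at 0.29 and 0.33, on the side of the cycling cells in both pools. Etfdh was on opposite sides in the pools, at 0.40 in the control and -0.13 in the chelator pool. Of the 10 members, 2 were called higher and 2 lower in the control (background 26.9% and 22.1%) and 1 and 1 in the chelator pool (24.1% and 22.9%). Within MPP4, Acadm was lower in cycling cells at -0.56 and -0.45 and Slc25a20 at -0.38 and -0.47, the 2 members called lower in each pool (background 25.5% and 24.1%), and none was called higher (17.9% and 17.2%).

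**Figure D3:**
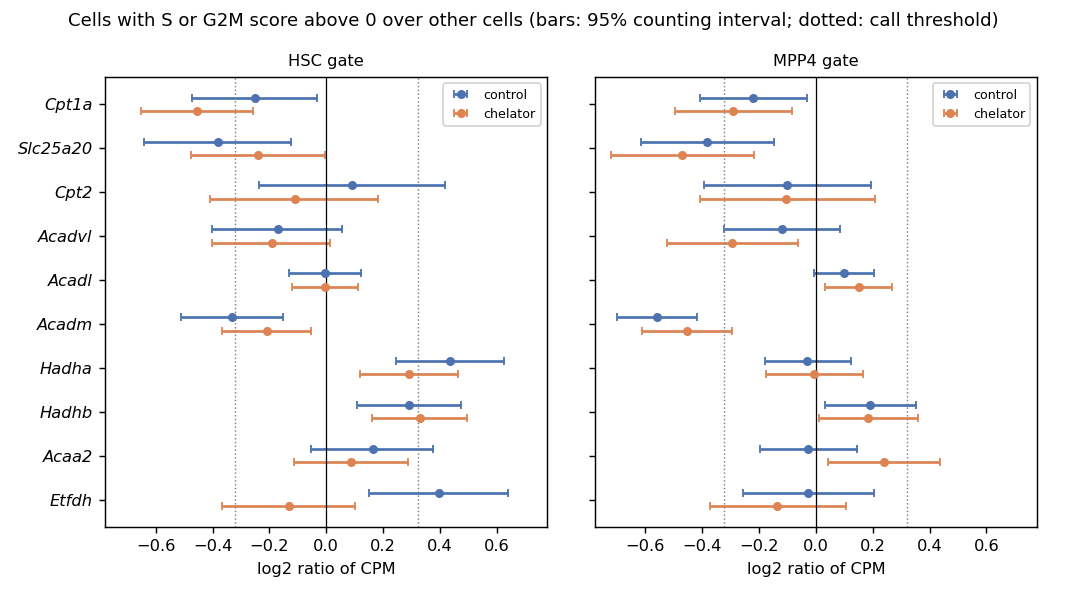
Log2 ratio of each member's CPM in cells scored above 0 for S or G2M genes over the other cells of the same gate, for the HSC gate and MPP4, with 95% counting intervals and dotted lines at the size for a call (0.32). Acadm, Acadvl, Cpt1a and Slc25a20 lie left of 0 in both gates and pools, and Hadhb lies right of 0.

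Among cells with neither score above 0, the gap between MPP4 and the HSC gate was -0.36 for Slc25a20 in the control and -0.20 in the chelator pool, where its interval (-0.45 to 0.045) reached 0. Acadvl was at -0.27 and -0.35 in these cells and Cpt1a at -0.13 and -0.33, on the same side as in all cells, with an interval that reached 0 for Cpt1a in the control (-0.33 to 0.065). Acadm, at -0.10 and -0.26 in all cells, was at 0.16 in the control and 0.00014 in the chelator pool. Hadha was at 0.45 (0.28 to 0.63) in the control, past the size for a call, and at 0.22 (0.040 to 0.41) in the chelator pool. The part of total UMIs per cell in these differences was not tested beyond the thinned values.

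Over the 10 profiles (5 gates in 2 pools), which share libraries and depth, some members varied together and others against each other. Cpt1a varied with Slc25a20 (Pearson r of 0.82) and Acadm (0.76), Slc25a20 with Acadvl (0.71), and Hadha with Acaa2 (0.83) and Hadhb (0.69). Cpt1a ran against Hadha (-0.86) and Acaa2 (-0.84), and Slc25a20 against Acaa2 (-0.76). Every profile counted equally, also those of MPP2 with 92 and 100 cells. MPP2 had the lowest Cpt1a and the highest Hadha and Acaa2 in both pools. Its part in these correlations was not tested. Cpt2, Acadl and Etfdh had weaker correlations with Cpt1a and Hadha: Cpt2 had an r of 0.085 with Cpt1a and -0.17 with Hadha, Acadl of 0.037 and 0.0074, and Etfdh of -0.39 and 0.41.

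**Figure D4:**
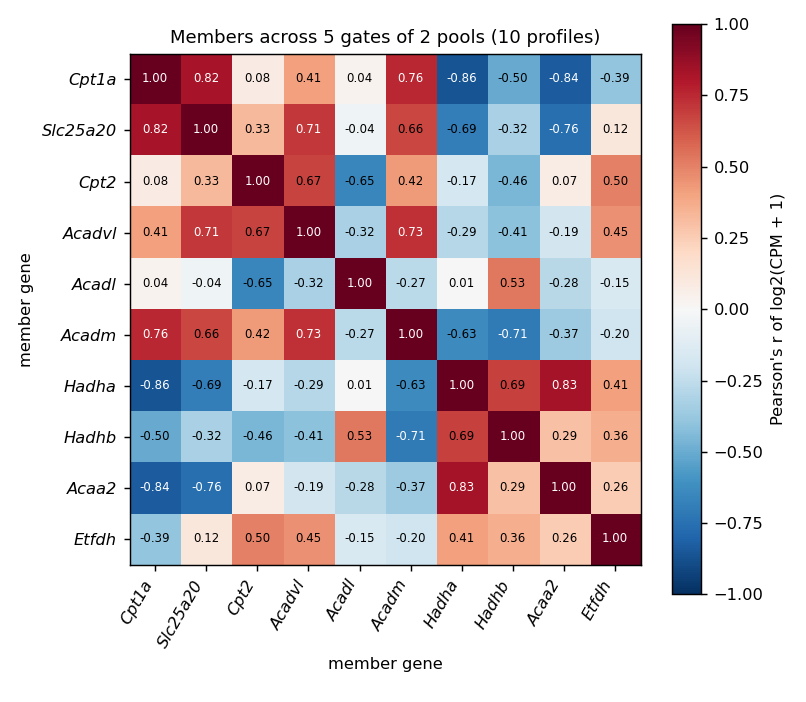
Pearson correlation between members over the 10 profiles of 5 gates in 2 pools, as a description without a test. Cpt1a and Slc25a20 (0.82) and Hadha and Acaa2 (0.83) vary together, and Cpt1a varies against Hadha (-0.86). The small MPP2 profiles count as much as the others.

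The question of the study's design, the chelator against the vehicle, gave small differences for all 10 members. Over all LSK cells, Cpt1a was at 45.9 CPM in the control and 46.2 in the chelator pool, Slc25a20 at 31.0 and 29.8, and Cpt2 at 19.9 and 20.9. Acadvl was at 40.1 and 38.7 CPM, Acadl at 139 and 140, and Acadm at 72.6 and 72.3. Hadha was at 65.7 and 63.0, Hadhb at 65.3 and 65.5, Acaa2 at 52.8 and 51.8, and Etfdh at 32.5 and 33.4 CPM. Of the 10, 5 were higher and 5 lower in the chelator pool, every interval included no difference, and the folds ran from 0.958 (Hadha) to 1.05 (Cpt2). None was called in either direction, where 3.58% of 13613 tested genes were. The sum of the 10 was 565 CPM in the control (35720 UMIs) and 562 CPM in the chelator pool (37361 UMIs), a log2 ratio of -0.0079 (-0.029 to 0.013).

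Within the gates no member was called either, against 3.23% of tested genes in the HSC gate, 5.97% in MPP1, 6.55% in MPP2, 5.50% in MPP3 and 3.06% in MPP4. In MPP2, 9 of the 10 members had the 100 UMIs needed for the call. Cpt1a in the HSC gate was the 1 member there whose interval left out no difference: 49.9 CPM in the control and 54.9 in the chelator pool, a log2 ratio of 0.14 (0.0047 to 0.27). Under alternative settings this ratio ran from -0.0045 (-0.24 to 0.23) in cells thinned to 5000 UMIs to 0.21 (0.046 to 0.37). The latter was in cells with neither cycling score above 0. In MPP4, Acadvl was at 37.2 CPM in the control and 32.4 in the chelator pool, a log2 ratio of -0.20 (-0.34 to -0.061), and Hadha at 69.1 and 64.4, a ratio of -0.10 (-0.20 to -0.0014). Acadvl in MPP4 ran from -0.27 to -0.059 under these settings, the latter (-0.32 to 0.20) among cells with neither cycling score above 0. The sum of the 10 was at 0.032 (-0.0081 to 0.071) in the HSC gate and -0.036 (-0.071 to -0.0014) in MPP4. Under the alternative settings it ran from 0.019 to 0.054 in the HSC gate and from -0.090 to -0.029 in MPP4. In the HSC gate it was 0.054 (0.011 to 0.098) without cells near a tag threshold. Among cells there with neither cycling score above 0 it was 0.051 (0.0018 to 0.10). In MPP4, the summed erythroid markers Klf1, Car1, Hbb-bs and Hba-a1 were at 585 CPM in the control and 54.6 CPM in the chelator pool. Most of the control sum was the globin gene Hbb-bs, at 460 against 18.75 CPM. Hba-a1 was at 53.5 and 3.25, Car1 at 65.3 and 29.3, and Klf1 at 5.54 and 3.30 CPM. The median UMIs per cell in MPP4 were 14511.5 and 16505. The part of this marker RNA and of UMIs per cell in the MPP4 values was not tested. The pools differed in sex make-up within these gates as well: cells with Xist were 35.8% of the sexed control and 27.0% of the sexed chelator cells in the HSC gate, and 43.1% and 22.4% in MPP4.

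**Figure D5:**
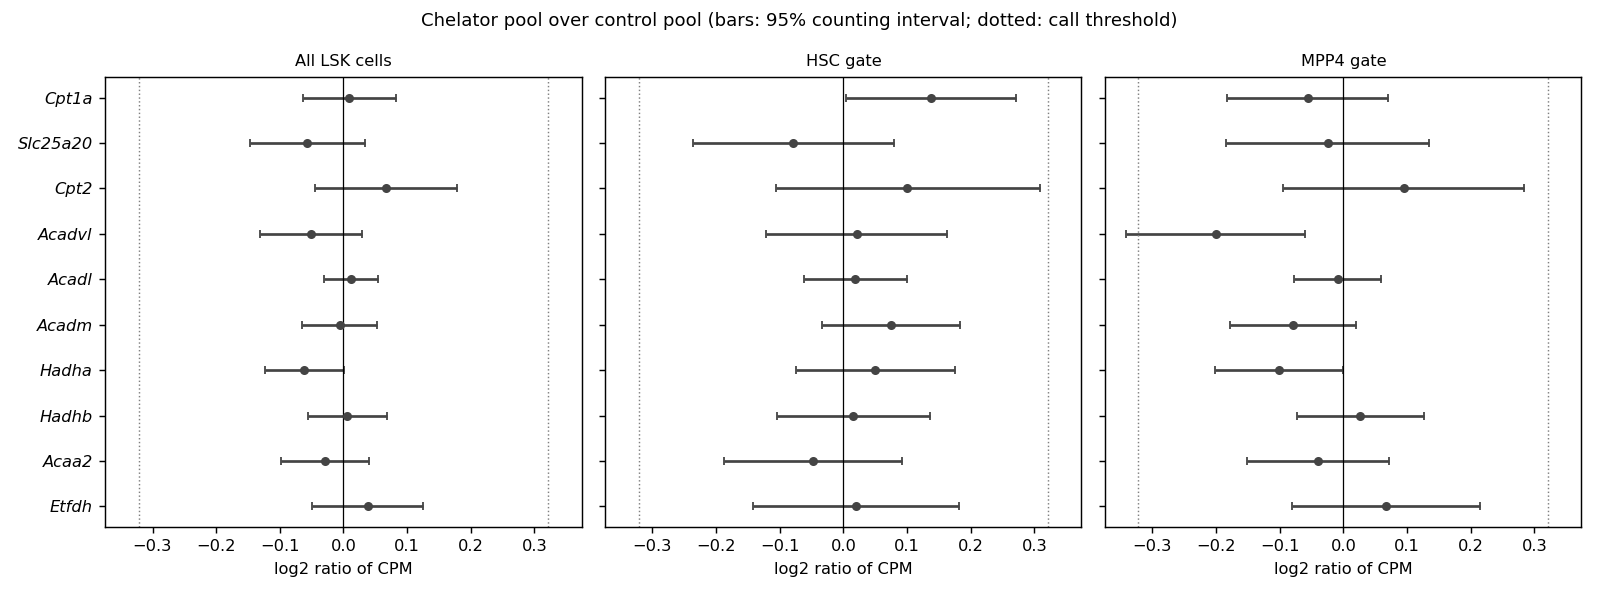
Log2 ratio of each member's CPM in the chelator pool over the control pool, in all LSK cells, the HSC gate and MPP4, with 95% counting intervals and dotted lines at the size for a call (0.32). No point passes that size, and Cpt1a in the HSC gate and Acadvl and Hadha in MPP4 have intervals that leave out 0.

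The same ratios were taken within each sex. In cells with Xist the sum over all LSK cells was 573 CPM in the control and 560 in the chelator pool, a log2 ratio of -0.034 (-0.072 to 0.0048). Cells with Y-linked transcripts had 565 and 566 CPM, a ratio of 0.0019 (-0.026 to 0.030). Cpt1a in the HSC gate was at 0.10 (-0.16 to 0.37) in cells with Xist and 0.14 (-0.030 to 0.32) in cells with Y-linked transcripts. Acadvl in MPP4 was at -0.13 (-0.40 to 0.14) and -0.25 (-0.43 to -0.069) in the same order. Both genes thus kept their side in each sex, with the interval off 0 only for Acadvl in cells with Y-linked transcripts. The other intervals that left out 0 were those of Hadha over all LSK cells with Xist at -0.12 (-0.24 to -0.011), Hadhb in MPP4 cells with Y-linked transcripts at 0.14 (0.0011 to 0.27), and the sum in HSC gate cells with Y-linked transcripts at 0.054 (0.0011 to 0.11). The difference between the sexes was not tested.

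Over the 6 further lists of fatty acid genes, chosen with the members, 2 of 66 tested genes were called between the pools over all LSK cells, close to the background of 3.58%. Of these lists, 0 of 16 further mitochondrial enzymes, 0 of 10 peroxisomal genes, 0 of 13 regulators and 0 of 3 PPAR target genes tested were called. In the uptake list 1 of 13 was called, the fatty acid translocase Cd36, which was lower at 0.616 CPM (41 UMIs) in the chelator pool against 1.08 CPM (68 UMIs) in the control, a log2 ratio of -0.80 (-1.40 to -0.22). In the synthesis list 1 of 11 was called, Me1, which makes NADPH, at a log2 ratio of 0.34 (0.0014 to 0.68). Both rest on few UMIs, and Me1's interval almost reached 0. Within the gates, 2 of 60 tested genes were called in the HSC gate (Me1 higher at 0.49 and the oxidase Acox3 lower at -0.41; background 3.23%) and none of 54 in MPP3 (5.50%). In MPP1, 3 of 54 were called (5.97%), Prkaa2 higher at 0.89 and Acsl4 and Angptl4 lower at -0.38 and -0.49. In MPP2, 2 of 36 were called lower (6.55%), Acsl1 at -0.54 and Scp2 at -0.34, and in MPP4 1 of 59 was called (3.06%), Slc27a2, higher at 0.68. These shares were near or below the background in every gate.

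Between the gates, genes of these lists were called in both directions. The background for MPP4 over the HSC gate was the same as for the members. Of tested genes, 20.2% were called higher and 24.5% lower in the control, and 20.5% and 26.1% in the chelator pool. In MPP4 over the HSC gate, 2 of 16 further mitochondrial enzymes were called higher and 2 lower in the control, and 2 and 4 in the chelator pool. Acads, the short-chain dehydrogenase, was at 0.72 and 0.54, and the hydratase Echs1 at 0.39 and 0.42. Acad10 was at -0.99 in the control and -1.03 in the chelator pool, and Hsd17b10 at -0.73 and -0.77. Among the regulators, 1 of 11 was called higher and 4 lower in the control, and 1 of 12 and 3 in the chelator pool. Pml was lower at -0.69 and -0.64, Rxra at -0.65 and -1.04, and Prkaa2, a catalytic subunit of the energy sensor AMPK, at -1.33 and -1.76. Rxrb was the 1 regulator called higher in MPP4, at 0.51 and 0.55, and Ppard was at 0.16 and 0.21 and was not called. Other gates differed. In MPP3 over the HSC gate of the control, Rxrb and Esrra were called higher (2 of 11, background 19.9%). Rxra, Prkaa2, Pml and Ppard were called lower there (4 of 11, background 26.9%). In the chelator pool, Ppard and Esrra were not called in MPP3. In the uptake list, 3 of 9 tested genes were called lower and none higher in the control, and 1 lower and 1 higher in the chelator pool. The fatty acid transporter Slc27a4 was lower in both, at -0.48 and -0.36, and the binding protein Fabp5 was higher in the chelator pool at 0.34.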

How the data were processed

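The authors deposited 1 matrix per condition with raw UMI counts per gene and tag, not normalized. The build was mm10 and the tools were Seurat 4.3.0 and Cell Ranger 7.0.0, per the submitters' processing notes, while the matrix names Cell Ranger 7.0.1, per the file headers. Not given in the sources used here: annotation, barcode filters and hashtag assignment. Conditions were checked on the hashtags: the labelled hashtag had more UMIs in 4025 of the 4026 control barcodes and in all 4037 of the chelator pool.

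Cells were kept from 500 detected genes upward if mitochondrial UMIs stayed below 10%, which removed 57 control and 39 chelator barcodes. No doublet caller was run; leaving out the 35 control and 52 chelator cells with both sex markers is an alternative added after the data were seen. Gates came from a 2-component Gaussian mixture on centred log ratios of each tag over both pools (scikit-learn 1.9.0), and S and G2M scores from scanpy 1.11.5 on cells thinned to 5000 UMIs (159 cells of the control and 138 of the chelator pool were too shallow). UMIs were summed per gene and group and scaled to CPM, with exact Poisson intervals and exact conditional binomial intervals for ratios (scipy 1.17.1). The ratio intervals were run on simulated Poisson counts without spread between cells or mice, which covers counting error only. Genes with at least 100 UMIs over both groups were tested for the call, a log2 ratio of at least 0.32 in size with an interval that leaves out 0.

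All 10 members are named, with up to 4 called genes of each further list and the 5 genes most like the sum or Cpt1a over the gates. Members and lists were chosen with earlier results of these data known. Of 32285 gene identifiers, 32158 matched a name table. Alternatives were cell filters, scaling, depth, sex, cycling cells, tag thresholds and a minimum of 200 UMIs. Acaa2 has no promoter here, and cells outside the 5 gates (CD135 with CD150) entered only the sums over all LSK cells. Peroxisomal genes are not reported between the gates here.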

Additional observations from a re-analysis of the deposited data

How the results depend on the processing

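Of 63 values of the summed members under the alternatives, 58 moved by less than the counting interval of the main value and 5 by more. The sign changed in 3, each with an interval that includes 0 before and after: the sum over all LSK cells went from -0.0079 to 0.0019 in cells with Y-linked transcripts and 0.011 in cells with no cycling score above 0, and MPP4 over the HSC gate in the control as given next. Chelator over control, the sum over all LSK cells was -0.034 in cells with Xist (main -0.0079), and in MPP4 it was -0.090 in thinned cells (main -0.036). MPP4 over the HSC gate in the control was -0.070 without mitochondrial and ribosomal protein genes and 0.040 in cells with no cycling score above 0 (main -0.027, -0.065 to 0.011), and in the chelator pool -0.14 without those genes (main -0.095). The causes were not tested. No member was called between the pools under any alternative with an interval. Members called higher in MPP4 of the control went from 0 to 1 in thinned cells, in cells with Y-linked transcripts and in cells with no cycling score above 0. Weighting cells or sexes equally gives no interval and so no calls. MPP2 is limited by its 92 and 100 cells, with 43 Cpt2 UMIs in the control and 52 in the chelator pool. No paired analysis was possible because each condition is 1 pool and the labels give no replicate numbers.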

Other observations

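Fatty acid synthesis and desaturation genes were called in both directions between the gates. In MPP4 over the HSC gate, the elongase Elovl5 was higher at a log2 ratio of 1.23 in the control and 1.19 in the chelator pool, and the desaturase Scd2 at 0.37 and 0.33. Fads1 and Fads2, the desaturases that make polyunsaturated fatty acids, were lower, Fads1 at -1.43 and -1.34 and Fads2 at -1.83 and -1.62. Of the synthesis genes tested, 2 of 9 were called higher and 2 lower in the control, and 2 of 10 and 3 in the chelator pool. Me1 was the third lower gene there, at -3.82. It was not called in the control, where fewer genes of this list had the UMIs needed for the call. Over all tested genes 20.2% were higher and 24.5% lower in the control, and 20.5% and 26.1% in the chelator pool, so these counts are near the background. Ucp2, a mitochondrial carrier and PPAR target, was at 243 CPM in the HSC gate and 501 in MPP4 of the control, and at 245 and 471 CPM in the chelator pool, log2 ratios of 1.04 and 0.94. Angptl4, a secreted lipase inhibitor, was at 1.12 and 0.95, and these 2 were the PPAR target genes called, of 3 tested.

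Cpt1c, a relative of Cpt1a best known from neurons, was noticed after its values were seen. It was at 2.97 CPM in the control HSC gate (2.20 to 3.93; 49 UMIs) and 3.77 CPM in the chelator HSC gate (2.95 to 4.73; 73 UMIs). The other gates held from 1 to 10 UMIs each, so the folds are wide. In the control the HSC gate was 4.24-fold (1.70 to 13.6) above MPP1, 3.15-fold (0.826 to 26.7, which includes no difference) above MPP2, 9.79-fold (3.16 to 49.1) above MPP3 and 7.51-fold (3.76 to 16.6) above MPP4. In the chelator pool it was 3.58-fold (1.72 to 8.60), 8.66-fold (1.51 to 347), 15.1-fold (4.96 to 74.8) and 29.3-fold (9.65 to 145) above the same gates.

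Among 9830 other genes with at least 1000 UMIs, those whose levels over the 10 profiles were most like the sum of the members were Rnpepl1, Mdm2, 2810402E24Rik, Strn3 and Gtf2h1, with Pearson r from 0.91 to 0.92. Most like Cpt1a were Men1, Fzd6, BC029722, Gm20492 and 2310033P09Rik, with r from 0.97 to 0.98. The profiles share libraries and depth, and the best of so many genes is high by selection.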
